A study of Mus musculus with 8 samples.

Results

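The regions described here are accessible chromatin sites far from genes whose peak enrichment kept its level when the transcription factor EBF1 was degraded. They were selected on the readout itself. Starting from the 54239 distinct regions that the authors deposited for the line EBF1-dTAG_C, 27264 had their centre more than 10 kb from every start and end of a protein-coding gene (RefSeq, GRCm38.p6). Of these, 4704 overlapped a peak with a −log10 q of at least 10 in each of the 8 peak lists. The mean log2 fold enrichment with dTAG-13 minus that with DMSO lay between -0.25 and 0.25 in both lines for 2183 of them, 46.4% of the 4704. These 2183 are the members, and the remaining 2521 are called the other distal regions. Because fold enrichment under dTAG-13 and DMSO chose the members, their flat enrichment is a description and carries no test.

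The cells were cultured mouse pro-B cells made to grow by Abelson murine leukaemia virus (A-MuLV), in which modified exogenous genes stood in for endogenous EBF1. There were 4 groups of 2 libraries: EBF1-dTAG_C with DMSO, EBF1-dTAG_C with dTAG-13, EBF1-dTAG_N with DMSO and EBF1-dTAG_N with dTAG-13. All 8 libraries therefore came from virus-transformed cells that lack the natural Ebf1 product. dTAG-13, a compound that hands a dTAG-fused protein to the cell's degradation machinery, was given at 0.5 uM for 6 h, and DMSO is its solvent. The titles place the controls at 0 h, the treatment label at 6 h in DMSO, and the treatment label was followed. The labels do not say whether a line is a single clone, and EBF1 protein was not among the measurements analysed here.

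EBF1 binds DNA as a dimer, opens chromatin at early B cell genes and works with Pax5, E proteins, Runx1 and ETS factors to set up the B lineage programme. Distal accessible sites include enhancers, insulators that bind CTCF, and unannotated or alternative promoters. In ATAC-seq, Tn5 transposase cuts where chromatin is open, so a peak marks a site where the DNA was reachable without saying which protein holds it open. In bulk libraries, fewer cells with an open site and less access per cell cannot be told apart. Of 7 pro-B marker genes, 6 had a peak within 1 kb of a gene end in all 8 lists, and Rag1 had one in 4 lists. None of 5 T cell, 5 myeloid and 4 erythroid markers had a peak in all 8 lists, and 8 of these 14 had one in no list. Peaks lay in 7 lists at the globin gene Hbb-bt, in 5 at Epor, in 3 at Csf1r and in 2 at Lyz2 and Cd3e.

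Although members lie far from the ends of gene spans, 189 of them (8.66%) overlapped the window from 250 bases before to 50 bases after an annotated transcription start, of an alternative coding transcript or of a long non-coding RNA. Sequence was used only for such starts, as the 250 bases upstream of the start in RefSeq (GRCm38.p6). Among members whose mean summit lay within those 250 bases, with 1 chromosome left aside, the 4 most abundant at coding and the 4 most abundant at non-coding starts were read. Of these 8 starts 5 are printed, picked after their sequences were seen, to show how unlike they are. The first pair are CpG-rich coding starts, in Stag1, which encodes a cohesin subunit, and in Srrm2, which encodes a splicing protein. The others belong to long non-coding RNAs. Capitals mark matches to the short motifs searched, listed with the counts further on.
Stag1, chr9:100643198-100643447, + strand: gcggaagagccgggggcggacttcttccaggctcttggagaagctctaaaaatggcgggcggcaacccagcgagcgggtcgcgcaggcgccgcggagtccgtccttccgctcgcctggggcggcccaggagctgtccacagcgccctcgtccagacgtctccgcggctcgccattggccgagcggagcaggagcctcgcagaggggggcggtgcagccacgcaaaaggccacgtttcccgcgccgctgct
Srrm2, chr17:23802937-23803186, + strand: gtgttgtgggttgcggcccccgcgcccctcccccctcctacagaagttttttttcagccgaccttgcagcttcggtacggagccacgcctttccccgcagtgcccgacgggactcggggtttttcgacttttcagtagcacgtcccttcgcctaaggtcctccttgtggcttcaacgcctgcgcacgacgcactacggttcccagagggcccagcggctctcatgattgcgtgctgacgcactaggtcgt
Gm30926, chr14:22801365-22801614, - strand: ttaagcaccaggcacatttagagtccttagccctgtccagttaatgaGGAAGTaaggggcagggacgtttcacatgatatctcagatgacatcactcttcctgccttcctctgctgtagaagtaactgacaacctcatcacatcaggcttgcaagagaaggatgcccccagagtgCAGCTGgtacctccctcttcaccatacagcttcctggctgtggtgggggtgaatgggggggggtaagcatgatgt
Gm51802, chr10:60162392-60162641, - strand: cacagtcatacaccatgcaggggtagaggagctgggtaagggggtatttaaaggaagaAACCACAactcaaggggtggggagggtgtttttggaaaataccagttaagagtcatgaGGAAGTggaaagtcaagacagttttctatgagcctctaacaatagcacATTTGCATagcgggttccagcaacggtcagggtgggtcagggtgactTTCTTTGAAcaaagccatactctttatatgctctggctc
2900060B14Rik, chr1:118459266-118459515, - strand: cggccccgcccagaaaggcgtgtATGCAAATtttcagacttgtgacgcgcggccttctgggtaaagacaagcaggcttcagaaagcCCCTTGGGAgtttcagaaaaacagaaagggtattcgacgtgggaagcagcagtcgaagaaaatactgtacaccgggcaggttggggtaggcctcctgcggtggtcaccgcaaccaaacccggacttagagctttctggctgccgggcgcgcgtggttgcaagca
The coding pair held none of the motifs, no 2 matches overlap in the others, and the pair's CpG frequencies relative to base content were 0.980 and 0.975. Gm30926 carried 1 ETS and 1 E-protein match at a CpG ratio of 0.0602, and Gm51802 carried ETS, OCT, RUNX and STAT matches at 0.156. The start of 2900060B14Rik, inside Clasp1, held an EBF1 match and an OCT match at a CpG ratio of 0.854. The mean summits of this last member lay 444.5 bp apart between the treatments in EBF1-dTAG_C and 19 bp apart in the other line, so its values do not all stand for the printed bases. Its fold enrichment was 15.4 and 15.1 in the EBF1-dTAG_C DMSO libraries and 13.8 and 13.7 after dTAG-13. The EBF1-dTAG_N libraries had 12.2 and 12.2 with DMSO and 11.9 and 12.4 after dTAG-13. The dTAG-13 values lay below the DMSO values in EBF1-dTAG_C and on both sides of them in EBF1-dTAG_N. A letter match does not show that EBF1 binds there.

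The members were strong peaks in every library. Fold enrichment is the ratio of reads covering the summit, plus 1, to the local background of the same library, plus 1, as the peak caller reported it. Median enrichment over the members was 17.7 in both EBF1-dTAG_C DMSO libraries and 16.9 and 17.7 after dTAG-13. In EBF1-dTAG_N the medians were 18.6 and 18 with DMSO and 17.5 and 19.2 after dTAG-13. Within each library the median member ranked between the 77.5th and the 82.4th percentile of all peaks of that list. That rank follows in part from the rule, which asked for a −log10 q of at least 10 in all 8 lists. Regions nearer to genes under the same q filter had medians from 16.4 to 19.4. The other distal regions had medians from 13.4 to 16.3, below the members' median in each library. They were set apart on these same enrichment values, with 591 below -0.25 in both lines and 196 above 0.25 in both. Their lower medians after dTAG-13 thus follow in part from the rule. How far the rule made the gap with DMSO, or those in width and abundance given next, was not tested. Members were also wider, with a median of 405 bp in the authors' deposited table against 378 bp, and more abundant, with a median log2 CPM of 4.66 against 4.14 in the authors' deposited table.

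**Figure D1:**
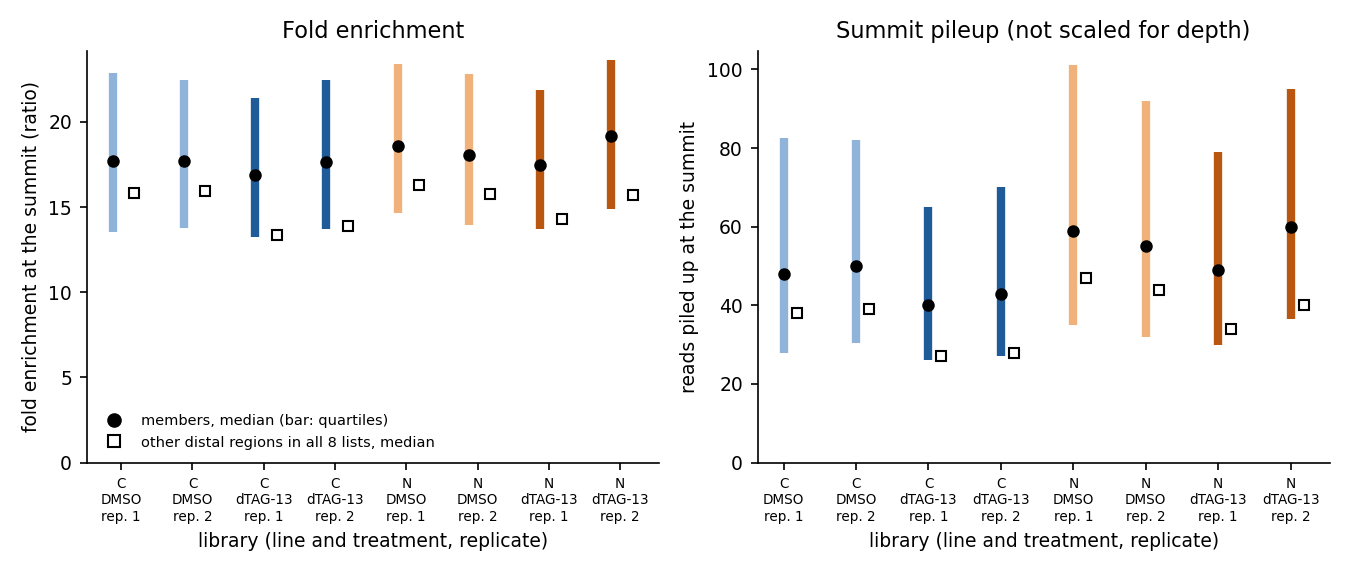
Left, fold enrichment at the summit (ratio), and right, reads piled up at the summit, in each of the 8 libraries. Black points are medians and bars the quartiles over the 2183 members, and open squares are medians over the 2521 other distal regions. Enrichment medians of the members sit between 16.9 and 19.2, whereas their pileup medians run from 40 reads (EBF1-dTAG_C, dTAG-13 replicate 1) to 60 reads (EBF1-dTAG_N, dTAG-13 replicate 2).

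The window of the rule was about as wide as the noise between replicates. The replicates of a group differed by a median of 0.17 (EBF1-dTAG_C DMSO), 0.20 (EBF1-dTAG_C dTAG-13), 0.14 (EBF1-dTAG_N DMSO) and 0.16 (EBF1-dTAG_N dTAG-13) log2 units over the members, without regard to sign. They differed by more than 0.25 for 26.0% to 39.4% of the members, depending on the group. The highest of the 8 libraries exceeded the lowest by a median of 1.44-fold over the members and 1.82-fold over the other distal regions, a gap that the rule itself makes by splitting the distal regions on enrichment differences. The same ratio was 1.44-fold over the regions nearer to genes. All 8 comparisons of a treated with a control library of the same line stayed within 0.25 log2 units for 383 members (17.5%). Leaving out 1 library at a time gave between 1925 and 2114 regions that met the rule, and 679 members (31.1%) met it in all 8 such runs.

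At the edge of the window, members and non-members are alike to 2 decimals. Just inside it lie regions 28.9 kb from Dtnbp1 and inside Ripor2 and Jarid2, with differences of 0.25 in EBF1-dTAG_C for the first and 0.25 in EBF1-dTAG_N for the others. Just outside lie regions 12.4 kb from Kcnj6 and inside Aftph and Rsbn1l, each also at 0.25 in EBF1-dTAG_N after rounding. On the lower side, regions 16.7 kb from Plek2, 21.8 kb from Psmc1 and 17.6 kb from Wnk1 were the last admitted, and regions inside Bcr, Cyria and Ccdc174 the first left out, at -0.25 in one of the lines. Of the other distal regions, 591 lay below the window in both lines, 196 above it in both, 802 outside it in EBF1-dTAG_C alone and 830 in EBF1-dTAG_N alone. A further 102 lay below it in one line and above it in the other.

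Fold enrichment combines a summit with its surroundings, and the 2 parts could be separated. For each peak, fold enrichment and −log10 p together fix the whole-number pileup at the summit and the local background, with a solution for 100% of the peaks in each list. In every list the backgrounds stood either at 1 lowest value or at multiples of 0.015 reads. The lowest value is the floor that the peak caller sets from the library's total, and is used here as the relative depth. With DMSO the floor was 0.337 ± 0.0094 (SD, n = 2) for EBF1-dTAG_C and 0.405 ± 0.00552 (SD, n = 2) for EBF1-dTAG_N. With dTAG-13 the floor was lower in both lines, 0.244 ± 0.0204 (SD, n = 2) and 0.360 ± 0.0171 (SD, n = 2), and the part of this depth gap in the results below was not tested. Around the members the local background was 5.01 to 6.22 times the lowest one, in medians per library. Pileups and backgrounds below are divided by the lowest background of the library where a treatment difference is given, and are plain reads where a library's value is given.

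Level enrichment under the rule did not always come with a summit pileup within the same window. The spread of pileup between replicates was not computed, so leaving that window does not by itself show a change. The depth-scaled pileup differed between dTAG-13 and DMSO by a median of 0.25 log2 units in EBF1-dTAG_C (quartiles 0.09 and 0.43) and 0.09 in EBF1-dTAG_N (quartiles -0.07 and 0.28). Over all 15269 regions with a qualifying peak in all 8 lists the medians were 0.12 and 0.01. The pileup of 1022 members (46.8%) stayed within 0.25 log2 units in EBF1-dTAG_C, 1078 were above and 83 below. In EBF1-dTAG_N, 1331 (61.0%) stayed within, 621 were above and 231 below. Both lines were within the window for 734 members. Of all 15269 regions, 56.9% stayed within it in the first line and 60.8% in the second. The members' 61.0% in EBF1-dTAG_N is thus near the share over all regions. The local background differed by a median of 0.20 in EBF1-dTAG_C and 0.10 in the other line, and over the 2183 members its difference ran with that of the pileup (Spearman's rank correlation 0.85 and 0.87). Pileup and background share the library and partly the reads, since the window around a summit holds the summit, and the rule admits only regions where both move alike, so this relation is a description.

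**Figure D2:**
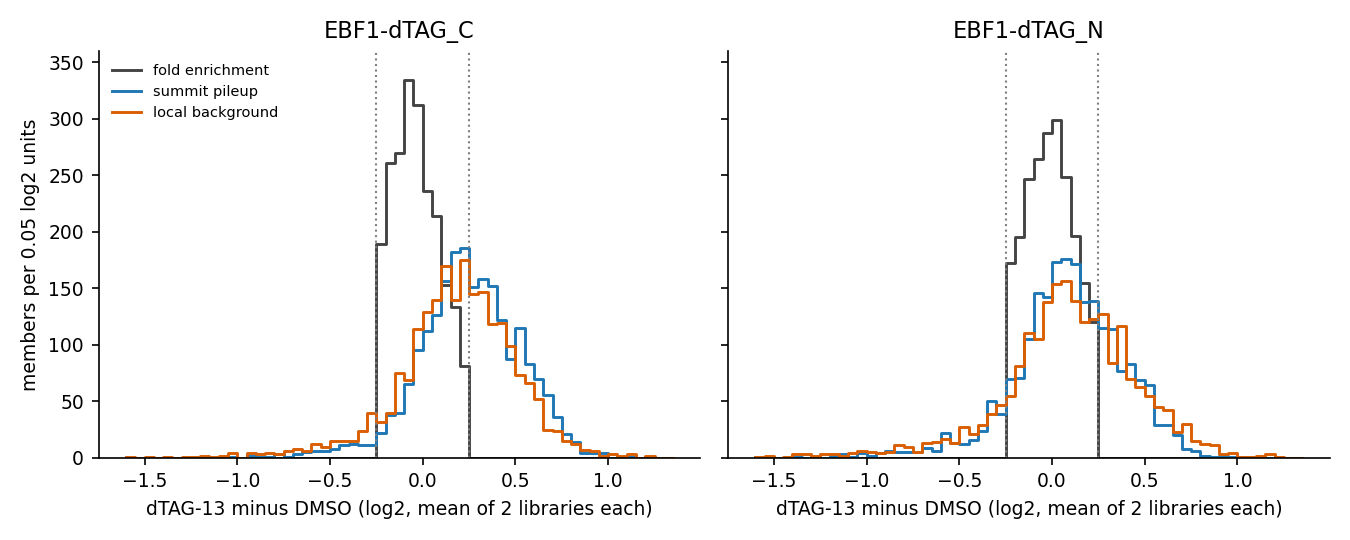
Histograms over the 2183 members of the difference between dTAG-13 and DMSO (log2, mean of 2 libraries each) in fold enrichment, in depth-scaled summit pileup and in depth-scaled local background, for each line. Dotted lines mark the window of -0.25 to 0.25 that the rule set on fold enrichment. Pileup and background spread beyond it on both sides and centre at 0.25 and 0.20 in EBF1-dTAG_C.

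The authors' deposited tables count reads over whole regions and give another view of the same contrast. In the authors' deposited table of EBF1-dTAG_C, 41 members were called falling and 32 rising at an adjusted p under 0.05, where 6.62% of all regions of the table fell and 0.308% rose. In the authors' deposited table of EBF1-dTAG_N, 122 members were called falling and 1023 (46.9%) rising, where 18.5% of all regions fell and 18.8% rose. Nothing is read from these shares, because the rule used the contrast. The median log2 fold change of the members was 0.22 in the authors' deposited table of EBF1-dTAG_C and 0.30 in that of EBF1-dTAG_N, against 0.09 and 0.17 over all their regions. Centred on the table's median, the calls became 46 falling and 12 rising in EBF1-dTAG_C (7.39% and 0.162% of all regions) and 202 falling and 469 rising in EBF1-dTAG_N (20.8% and 7.98% of all regions). No member was called in opposite directions by the authors' deposited tables, 41 fell and 31 rose in both, and 1037 (47.5%) were called in neither. Over all 15269 regions there were likewise 0 opposite calls in the authors' deposited tables, with 520 falling and 89 rising in both and 55.5% called in neither. The F and p-values of the EBF1-dTAG_N table imply 110386 denominator degrees of freedom against 11.2 for EBF1-dTAG_C, so its spread was pooled over regions and its number of calls is not comparable.

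Called members had pileup differences in the direction of the call in most cases, while the rule held their enrichment differences near 0. Of the 41 members called falling in the authors' deposited table of EBF1-dTAG_C, 40 had a lower depth-scaled pileup after dTAG-13, with a median difference of -0.52 log2 units against -0.08 in enrichment. Their local background differed by a median of -0.74. The 32 called rising all had a higher pileup, with a median of 0.66 against 0.09 in enrichment. In EBF1-dTAG_N, 120 of the 122 called falling had a lower pileup (median -0.57, enrichment -0.07), and 908 of the 1023 called rising had a higher one (median 0.23, enrichment 0.02). Across the 2183 members, Spearman's rank correlation between the pileup difference and the log2 fold change of the authors' deposited table was 0.71 in EBF1-dTAG_C and 0.78 in EBF1-dTAG_N. With the enrichment difference it was 0.33 and 0.31, but the rule confined that difference to a narrow range, so the 2 are not to be compared among members. Over all 15269 regions, which were not chosen on it, the pileup difference gave 0.68 and 0.75 and the enrichment difference 0.43 and 0.45 against the authors' deposited tables. All these measures share the same 4 libraries of a line. Called members of both directions were broader than those not called. Median widths in EBF1-dTAG_C were 592 bp for falling, 493.5 bp for rising and 401 bp for uncalled members, and in EBF1-dTAG_N 519.5 bp, 423 bp and 380 bp. Called members were also more abundant. By the calls in EBF1-dTAG_C, median log2 CPM in that line's deposited table was 6.01 for falling, 5.42 for rising and 4.62 for uncalled members. By the calls in EBF1-dTAG_N, the same log2 CPM had medians of 5.78, 4.95 and 4.29. Width was not tested apart from abundance.

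**Figure D3:**
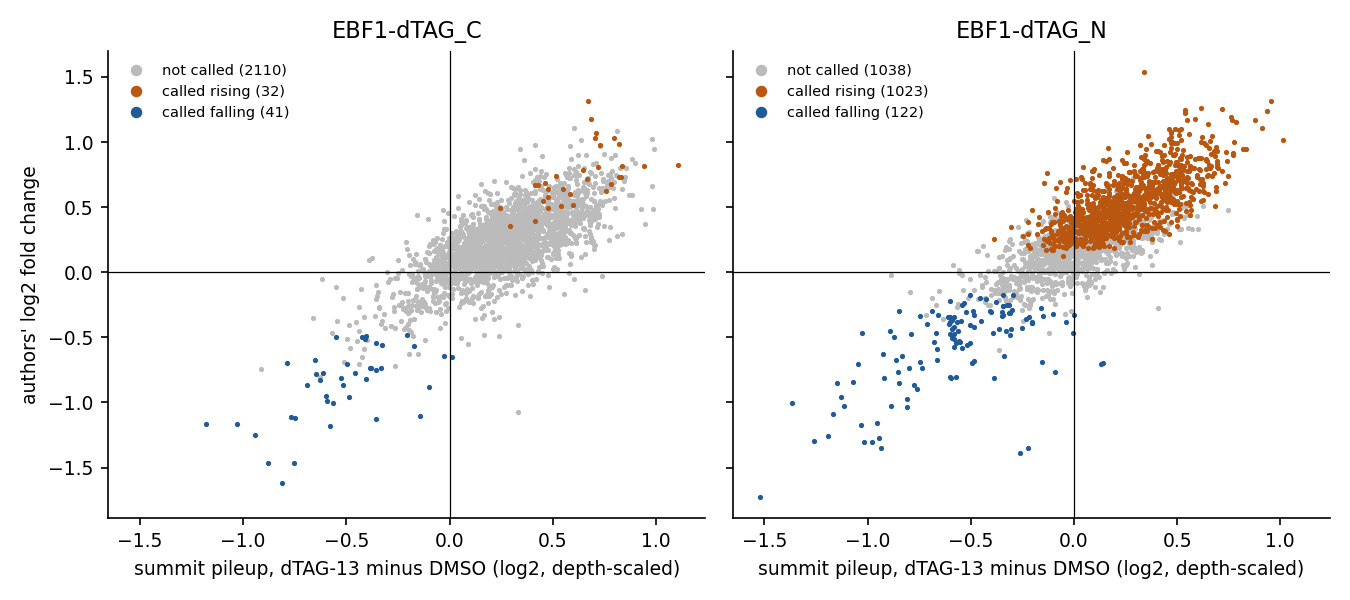
Each point is 1 of the 2183 members. The x axis is the difference in depth-scaled summit pileup (log2, dTAG-13 minus DMSO) and the y axis the log2 fold change of the authors' deposited table for the same line, with the authors' calls at an adjusted p under 0.05 in colour. Called falling members lie at the lower left, and the rising ones of EBF1-dTAG_N start at 0.13 on the y axis.

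Single regions show how a summit can lose reads at level enrichment. The region 61.2 kb from Hdhd5 (chr6:120592215-120592880) had the smallest p of all falling members in EBF1-dTAG_C, with a log2 fold change of -1.62 (adjusted p = 4.34e-05) in the authors' deposited table, and -1.35 (adjusted p = 7.15e-86) in that of EBF1-dTAG_N. Its enrichment was 19.6 and 17.2 in the EBF1-dTAG_C DMSO libraries and 14 and 18.9 after dTAG-13, with overlap between the treatments. Its summit held 107 and 100 reads with DMSO and 34 and 53 after dTAG-13, while the background went from 4.5 and 4.86 to 1.5 and 1.86 reads. In EBF1-dTAG_N the summit held 197 and 205 reads with DMSO and 81 and 108 after dTAG-13, and enrichment was 17.8, 19.5, 18.4 and 22.3 in the same order. Every treated library lay below every control library of its line in pileup and background, and in neither line did enrichment separate them.

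A region 13 kb from Anapc16, which encodes a subunit of the anaphase-promoting complex, had the lowest log2 fold change of any member in the authors' deposited table of EBF1-dTAG_N, at -1.72 (adjusted p = 4.79e-127), and -1.0 (adjusted p = 0.0046) in that of EBF1-dTAG_C. Its pileup in EBF1-dTAG_N was 188 and 159 reads with DMSO and 47 and 61 after dTAG-13, whereas its enrichment was 17.4 and 15.8, then 15.9 and 16.3. In EBF1-dTAG_C the pileup was 83 and 112, then 34 and 65 reads, and enrichment was less even, at 15.6 and 17.9, then 14.2 and 22.4. Inside Nup210, a nuclear pore gene, the pileup in EBF1-dTAG_C was 234 and 275 reads with DMSO and 116 and 85 after dTAG-13, at an enrichment of 25.9 and 26.6, then 26.0 and 24.3. The authors' deposited table gives that region -1.47 (adjusted p = 0.00438) in EBF1-dTAG_C. Inside Ptprs, a receptor tyrosine phosphatase gene, the pileup in EBF1-dTAG_C was 264 and 201 reads, then 118 and 119, at an enrichment of 27.1 and 23.9, then 26 and 27. Its log2 fold change was -0.96 (adjusted p = 2.05e-04) in the authors' deposited table. A region 200 kb from Cyria had a pileup of 200 and 180 reads, then 86 and 95, and -0.95 (adjusted p = 3.24e-04) in the same authors' deposited table. In each of these 5 regions both treated pileups of EBF1-dTAG_C lay below both controls. After scaling by depth the pileup differences were still below 0 in EBF1-dTAG_C, at -0.81 for Hdhd5, -0.56 for Anapc16, -0.88 for Nup210, -0.49 for Ptprs and -0.60 for Cyria.

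Most members called rising had more reads at the summit once depth was taken into account, though 115 of the 1023 called rising in EBF1-dTAG_N had fewer. A region 12.5 kb from Bhlhe41, which encodes a basic helix-loop-helix repressor, had a log2 fold change of 1.24 (adjusted p = 3.31e-26) in the authors' deposited table of EBF1-dTAG_N. Its summit held 82 and 71 reads with DMSO and 125 and 135 after dTAG-13, at a lower depth. The enrichment was 25.8 and 24.7, then 29.1 and 28.9, and did not overlap between treatments. A region 64.8 kb from Rbpj, the DNA-binding partner of Notch, had 99 and 94 reads, then 116 and 154, and a log2 fold change of 0.98 (adjusted p = 2.93e-27) in the authors' deposited table of EBF1-dTAG_N. In EBF1-dTAG_C, a region 34.5 kb from Cd1d1, a gene for presenting lipid antigens to T cells, had a log2 fold change of 1.07 (adjusted p = 0.00736) in the authors' deposited table at a pileup of only 14 and 14, then 16 and 17 reads. A region 26.7 kb from Chga had 32 and 36, then 47 and 33 reads, and 1.18 (adjusted p = 0.0062) in the authors' deposited table of the same line.

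**Figure D4:**
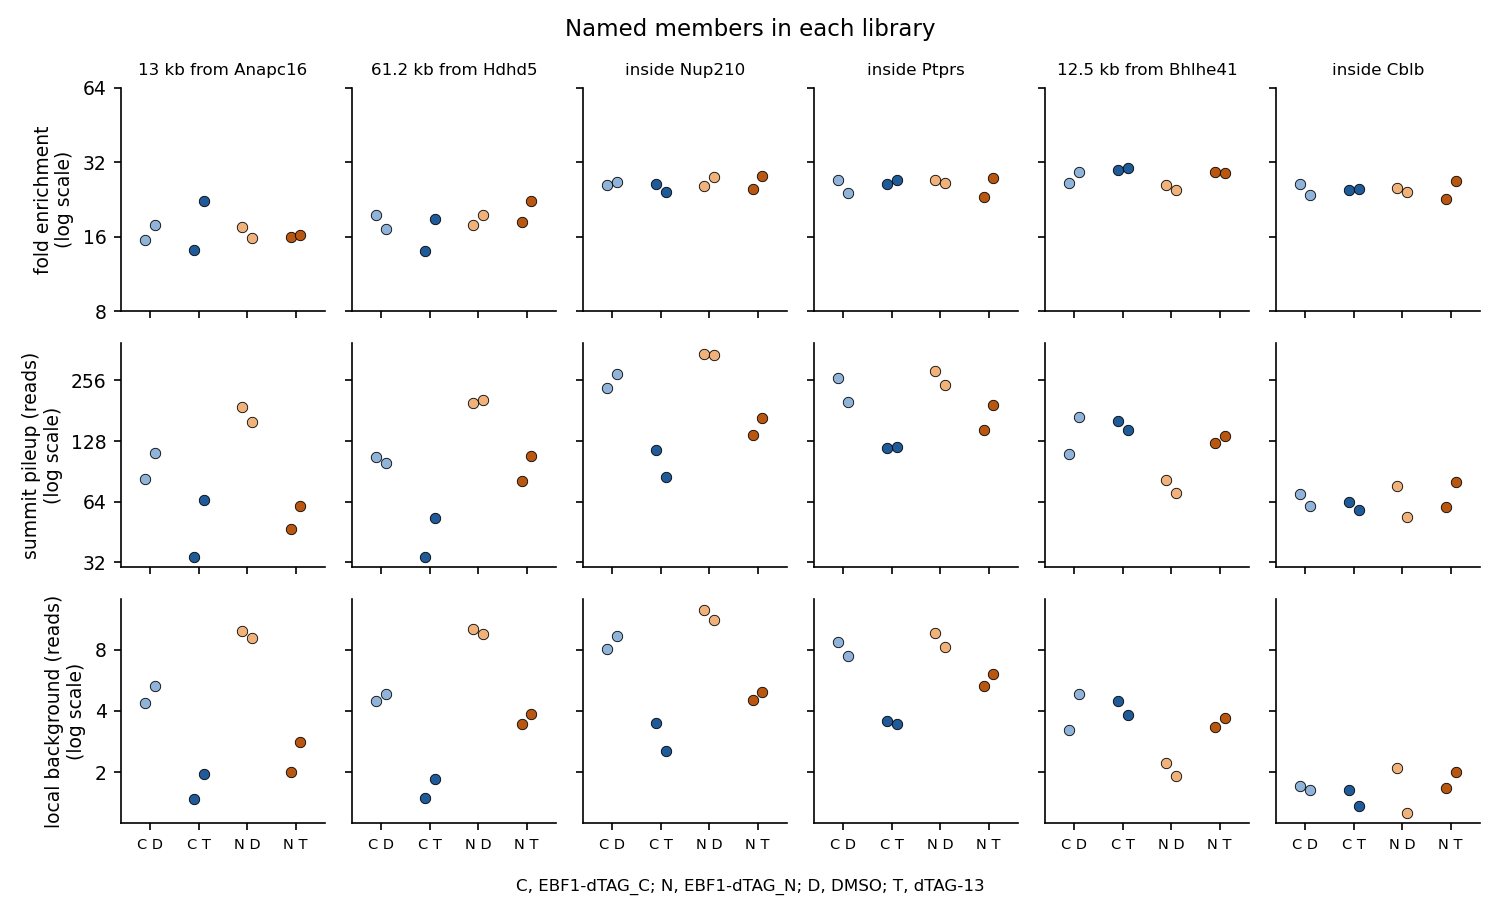
Fold enrichment, summit pileup and local background (reads, not depth-scaled, all on log axes) of 6 named members in each of the 8 libraries. Points are single libraries, with 2 per group. Enrichment overlaps between treatments in both lines for all but the region near Bhlhe41. It spans 14 to 22.3 near Hdhd5 and 14.2 to 22.4 near Anapc16. Pileup and background of the first 4 drop together after dTAG-13. In EBF1-dTAG_N, those near Bhlhe41 are higher after dTAG-13 than with DMSO. Those inside Cblb overlap between treatments.

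The steadiest members by the rule's own measure were regions inside Cblb and B4galt5, 14.7 kb from Egfl7 and inside Ahnak. The region inside Cblb, an E3 ubiquitin ligase gene, had an enrichment of 26.2 and 23.5 with DMSO and 24.7 and 24.9 with dTAG-13 in EBF1-dTAG_C, and 25.2 and 24.3, then 22.8 and 26.9 in EBF1-dTAG_N. Its pileup was 70 and 61, then 64 and 58 reads in EBF1-dTAG_C and 77 and 54, then 60 and 80 in EBF1-dTAG_N. In depth-scaled terms this is 0.37 and 0.27 log2 units higher after dTAG-13. The authors' deposited tables give it 0.37 in EBF1-dTAG_C (adjusted p = 0.492) and 0.56 in EBF1-dTAG_N (adjusted p = 9.18e-04). The region inside B4galt5, a galactosyltransferase gene, had depth-scaled pileups 0.58 and 0.48 higher, with log2 fold changes of 0.72 (adjusted p = 0.187) and 0.63 (adjusted p = 3.85e-10) in the authors' deposited tables. Least difference in enrichment thus did not mean least difference in pileup.

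The most abundant members spanned a wide range. A region 25 kb from Col19a1 (chr1:24612573-24613317) stood apart with a log2 CPM of 12.2 in the authors' deposited table and a pileup of 1157 to 1785 reads, while the second most abundant, inside Lrif1, had a log2 CPM of 8.20 in the authors' deposited table. What set the Col19a1 region apart was not tested, and which reads were filtered out before peak calling is not given. Enrichment at the Col19a1 region was between 21.9 and 22.7 in the 8 libraries, and the summit was at the same base in all of them. The authors' deposited table calls it rising in EBF1-dTAG_C (0.50, adjusted p = 7.40e-04) and in EBF1-dTAG_N (0.13, adjusted p = 8.39e-14), where its depth-scaled pileup differed by -0.05. The region inside Stag1, which holds the first start printed above, had an enrichment of 21.6 and 21.1, then 19.1 and 23.5 in EBF1-dTAG_C, and 20.9 and 20.5, then 20.9 and 19.3 in EBF1-dTAG_N. Its pileups were 205 and 164, then 139 and 189 reads, and 210 and 174, then 153 and 186 reads, and overlapped between treatments in both lines. Regions inside Hdac4, a class IIa histone deacetylase gene, Srrm2 and Tfeb, a regulator of lysosome genes, and regions 16.9 kb from the remodeller gene Chd2 and 45.2 kb from Zfp958 complete the first 8, with log2 CPM between 7.89 and 8.13 in the authors' deposited table. Across the members, Spearman's rank correlation with that log2 CPM was 0.46 for mean enrichment and 0.85 for mean depth-scaled pileup.

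The difference between the lines was not used by the rule, and an exact permutation test was applied to it. Enrichments were first centred on each library's median over the 15269 regions. Centred enrichment was higher in all 4 EBF1-dTAG_C libraries than in all 4 EBF1-dTAG_N libraries for 171 members (7.83%), where 4.87% of the 15269 regions were so. The reverse held for 181 members (8.29%), against 3.96%. Such a region reaches an exact permutation p of 0.0286 (two-sided, n = 4 libraries per line), the smallest that 70 arrangements allow, and 352 members had it. After Benjamini-Hochberg adjustment over the 15269 regions the smallest value was 0.323, so no member passed 0.05. The rule holds down the treatment difference within each line and with it the spread over a line's 4 libraries, so the larger share among members is not read as a property of theirs. Without EBF1-dTAG_C DMSO replicate 1 the first count was 264, where 7.84% of the 15269 regions were so. Without EBF1-dTAG_C dTAG-13 replicate 1 the second was 298, against 6.42%. With the DMSO libraries alone, 453 members (20.8%) were higher in both EBF1-dTAG_C libraries, where 24.5% of the 15269 regions were, and 518 (23.7%) were higher in both EBF1-dTAG_N libraries, where 20% were. The median absolute difference between the lines was 0.13 log2 units over the members and 0.11 over all 15269 regions.

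Regions inside Gpr35 and Arhgap26 and regions 21.4 kb from Tmem167 and 14.6 kb from Ttpal were furthest above in EBF1-dTAG_C. The region inside Gpr35, a G-protein-coupled receptor gene (chr1:92972897-92973217), had an enrichment of 23.4, 24.1, 18.4 and 23.5 in the EBF1-dTAG_C libraries and 11.1, 8.52, 9.35 and 9.35 in the EBF1-dTAG_N libraries, DMSO before dTAG-13. The 2 lines did not overlap, and the mean centred difference was -1.26 (EBF1-dTAG_N minus EBF1-dTAG_C, log2). Its pileup was 48, 56, 34 and 49 reads against 17, 12, 12 and 12. The region inside Arhgap26 differed by -1.11, with enrichments of 20.3 to 24.9 against 9.04 to 13. The regions near Tmem167 and Ttpal differed by -0.97 and -0.92.

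Regions 70.1 kb from Picalm, inside Tmem163, 473 kb from Zfp462 and 145 kb from Gk2 were furthest above in EBF1-dTAG_N. At Picalm, a clathrin assembly gene, enrichment was 7.92, 9.42, 9.55 and 10.7 in the EBF1-dTAG_C libraries against 20.5, 19.6, 19.5 and 18.9 in the EBF1-dTAG_N libraries, a centred difference of 1.02. Its pileup was 15, 20, 20 and 21 reads against 75, 61, 64 and 73. The regions at Tmem163, Zfp462 and Gk2 differed by 1.0, 0.99 and 0.92. A region inside Flt3, the receptor of a cytokine that early lymphoid progenitors need, had an enrichment of 7.23, 6.20, 8.38 and 7.01 in the EBF1-dTAG_C libraries against 14.6, 13.9, 12.7 and 13.1 in those of EBF1-dTAG_N. Its centred difference was 0.88, at the smallest permutation p of 0.0286 and an adjusted p of 0.323. The rule required each of these regions to keep its enrichment under dTAG-13 within a line, at whatever level that line had. Centred pileup in place of enrichment kept the lines apart for 191 members in one direction and 240 in the other, where 6.36% and 5.78% of the 15269 regions were apart.

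**Figure D5:**
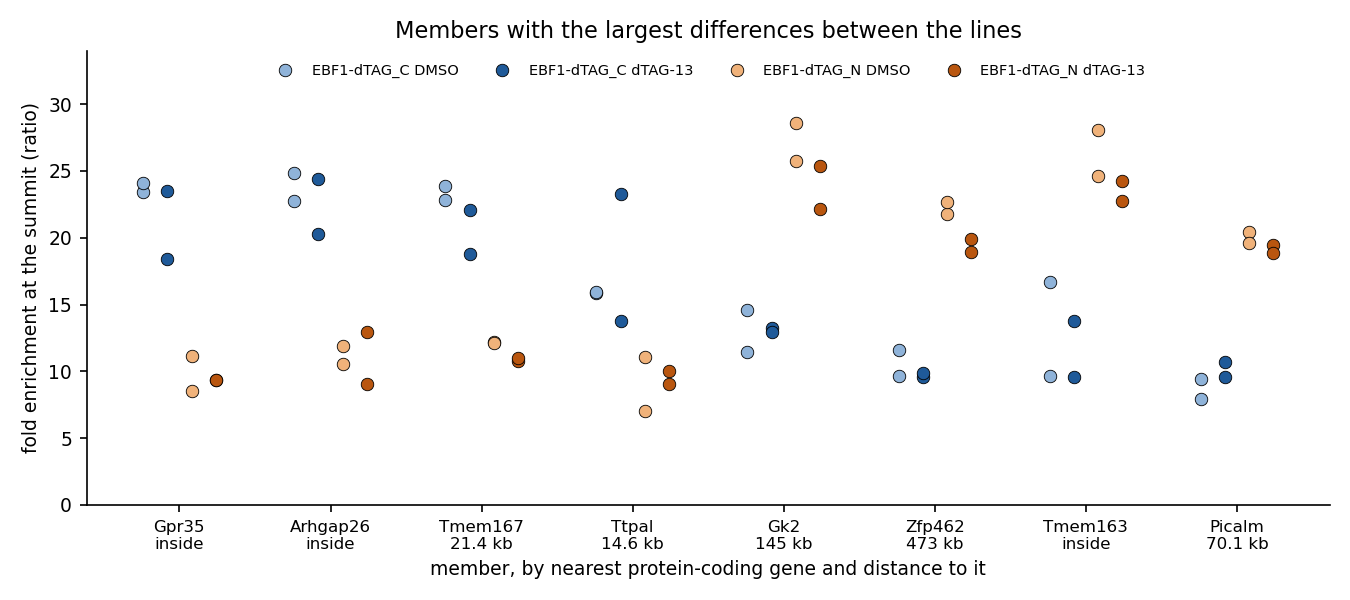
Fold enrichment in each library of the 8 members with the largest differences between the lines among those without overlap, named by the nearest protein-coding gene. Points are single libraries, 2 per group. The first 4 sit higher in every EBF1-dTAG_C library and the last 4 higher in every EBF1-dTAG_N library.

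The rule did not use where in a region the summit lay. The mean summit of the dTAG-13 libraries lay a median of 8.0 bp from that of the DMSO libraries in EBF1-dTAG_C and 7.5 bp in EBF1-dTAG_N. Those are means of 2 libraries. Single libraries of different treatments lay a median of 9 to 10 bp apart in EBF1-dTAG_C and 9 bp in EBF1-dTAG_N, and replicates of a group 9 to 10 bp. The displacement stayed within 50 bp for 1977 (90.6%) and 1967 (90.1%) members and exceeded 100 bp for 58 and 62. In the other distal regions the mean summits lay medians of 10.5 and 10 bp apart. Over all 8 libraries the outermost summits of a member were a median of 42 bp apart, within 50 bp for 1222 members (56.0%). Peak width after dTAG-13 was 0.980 times that with DMSO in EBF1-dTAG_C and 0.996 times in EBF1-dTAG_N, in medians, with quartiles of 0.933 and 1.03 in the first and 0.945 and 1.04 in the second. The other distal regions had median ratios of 0.960 and 0.982. Between single libraries, summits of different treatments were thus as close as those of replicates.

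Members at an annotated start, meaning those that overlap the window defined above, were larger than the rest. Of the 189, 117 lay at a protein-coding start and 72 at a long non-coding start alone. Among the other distal regions 121 (4.80%) lay at a start, and among the 10565 regions nearer to genes 55.8% did. Members at a start had a median log2 CPM of 5.81 in the authors' deposited table against 4.57 for the other 1994 members, and a median width of 467 bp against 399 bp. The summit lay upstream of the start in 149 of the 189, with a median position of -51.25 bp. In the 250 bases upstream of the start, the median GC content was 59.2% and the CpG ratio 0.637, with a ratio over 0.6 in 100 of 189 (52.9%). Of all 32817 starts in the table, 33.9% were over 0.6, and of the starts in the other distal regions 33.9%. By the start nearest to each summit, the 111 coding member starts had a median CpG ratio of 0.707 and the 78 non-coding ones 0.454, against 0.530 and 0.240 for all coding and all non-coding starts. Lines stood apart without overlap at 18 of the 189, 11 higher in EBF1-dTAG_C and 7 higher in EBF1-dTAG_N. That is 9.52%, against 16.8% of the other members and 8.83% of all 15269 regions.

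The motifs were searched on both strands of these 250-base windows. GGAAGT, the core of ETS sites, occurred in 46 of the 189 member starts (24.3%), in 36 of 121 starts of the other distal regions (29.8%) and in 19.7% of all starts. CCCNNGGGA, the core of the EBF1 site, occurred in 12 (6.35%), against 6.61% and 5.60%. The E-protein hexamers CAGGTG or CAGCTG occurred in 55 (29.1%), against 32.2% and 27.7%. TGTGGTT, bound by RUNX factors, occurred in 11 (5.82%), against 7.44% and 4.39%, and ATGCAAAT, the octamer, in 7 (3.70%), against 3.31% and 1.60%. The long CTCF motif occurred in 4 (2.12%), against 1.65% and 0.509%. TGANTCA of AP-1 was found in 13 (6.88%), against 5.79% and 6.75%, and GTAAACA of FOXO factors in 6 (3.17%), against 0% and 3.16%. TTCNNNGAA of STAT factors was found in 6 (3.17%), against 3.31% and 7.01%. GAANTGAAA, an IRF composite, was found in 1, against 4 of 121 and 493 of all 32817 starts. The differences in share between these sets of starts were not tested. The other 1994 members were not searched, since their sequence was not used here.

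Members were spread over the genome. Their number per chromosome ran from 34 on X to 164 on chromosome 1, and the share of the distal regions in all 8 lists from 41.6% on chromosome 2 to 52.7% on chromosome 13, with 0 of 1 on Y. In all, 1139 (52.2%) had their centre inside a protein-coding gene, and 229 were more than 100 kb from any. The median distance to a gene start or end was 30.7 kb. With a gap of at most 20 kb between neighbours, 1732 members stood alone, 174 formed pairs and 31 groups held 3 or more, the largest 7. Foxp1, a forkhead gene needed in early B cells, was the nearest gene of 8 members, Tex14 of 7, and Lpp, Snx29 and Vti1a of 6 each, within 100 kb. Foxp1 had 57 distal regions, 10 of them in all 8 lists. Of its non-members, 4 (EBF1-dTAG_C) and 10 (EBF1-dTAG_N) fell in the authors' deposited tables, where 6.62% and 18.5% of all regions fell. In all, 1479 genes were nearest to a member within 100 kb, 1154 of them to 1 alone.

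Genes of B lineage transcription factors held both members and regions that fell. Of 30 such genes, 24 had a distal region in all 8 lists within 100 kb and 17 had a member. Members made up 39 of their 84 distal regions in all 8 lists (46.4%), the same share as over all genes (46.4%). In the authors' deposited table of EBF1-dTAG_N, 19 of the 39 were called rising and 3 falling, and in that of EBF1-dTAG_C 1 was called falling. Rising calls made up 46.9% of all members and 18.8% of all regions in EBF1-dTAG_N, and falling calls 18.5% of all regions there and 6.62% in EBF1-dTAG_C, so nothing is read from these counts. Of the 17 genes, 11 also had a non-member distal region called falling in the authors' deposited tables, in each line. Among all 1479 genes with a member, 432 had one in EBF1-dTAG_C and 662 in the other line, and the difference was not tested. At Bach2, a repressor gene of the B lineage, 4 of 7 regions in all 8 lists were members. Of its 41 distal regions, whether or not in all 8 lists, 3 (EBF1-dTAG_C) and 6 (EBF1-dTAG_N) non-members fell in the authors' deposited tables. At Pax5, which keeps B cells committed, all 4 were members, of which 2 rose and 1 fell in the authors' deposited table of EBF1-dTAG_N, and no non-member distal region fell in either table. At Ikzf1, which encodes Ikaros, both were members, and both were called rising in the authors' deposited table of EBF1-dTAG_N. At Tcf12, Lef1, Myb and Id2 none of the 5, 2, 2 and 4 was a member.

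The gene of EBF1 itself is an example. Of 6 distal regions in all 8 lists nearest to Ebf1, 5 were members. Of its 25 distal regions, whether or not in all 8 lists, 1 non-member fell in each of the authors' deposited tables. The most abundant member, inside Ebf1 (chr11:44892864-44893525), had an enrichment of 14.5 and 17.1 with DMSO and 13.9 and 16.1 with dTAG-13 in EBF1-dTAG_C, and 16.4 and 17.0, then 17.9 and 16.8 in EBF1-dTAG_N. Its log2 fold change was -0.18 (adjusted p = 0.676) and 0.02 (adjusted p = 0.904) in the authors' deposited tables. Values overlapped between treatments in both lines. The most abundant Pax5 member, inside the gene, had an enrichment of 11.3 and 11.9, then 11.4 and 10.1 in EBF1-dTAG_C, with 0.06 (adjusted p = 0.902) in the authors' deposited table. A member 94.0 kb from Foxo1 had 28.2 and 26.0, then 26.5 and 28.6, with -0.11 (adjusted p = 0.648) in the authors' deposited table of EBF1-dTAG_C.

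The other lists of genes were shorter. Over all genes, members made up 46.4% of the distal regions in all 8 lists, and the departures from that share below were not tested. B lineage effector genes, such as receptors and kinases of the pre-B cell receptor, had 4 members among 15 distal regions in all 8 lists, at Blnk, Cd93, Dntt and Flt3. The Il7r, Syk and Btk genes had 2 such regions each and no member. Growth and survival genes had 12 members among 27. Of these 12, 3 were called falling in the authors' deposited table of EBF1-dTAG_C and 4 in that of EBF1-dTAG_N, at Ccnd3 and Pim1. Falling calls made up 1.88% and 5.59% of all members and 6.62% and 18.5% of all regions. The member inside Ccnd3, a D-type cyclin gene, had an enrichment of 31.2 and 30.4, then 25.2 and 27.9 in EBF1-dTAG_C and a pileup of 298 and 247, then 109 and 164 reads. Its log2 fold change was -0.50 (adjusted p = 0.0277) in the authors' deposited table. The member 53.4 kb from Pim1, a kinase gene that supports survival, had 30.3 and 26.8, then 27.8 and 30.0, with pileups of 338 and 300, then 163 and 197 reads and -0.54 (adjusted p = 0.00388) in the authors' deposited table of EBF1-dTAG_C. Chromatin architecture genes had 3 members among 5, at Stag1 and Wapl, genes of other lineages 4 among 4, at Cebpb and Tcf7, and housekeeping genes 1 among 3, at Actb.

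At the antigen receptor loci, 22 of 46 distal regions in all 8 lists across the immunoglobulin heavy chain locus were members (47.8%), and 18 of 45 across the kappa locus (40.0%). In the authors' deposited table of EBF1-dTAG_N, 10 and 6 of these were called rising, where 46.9% of all members and 18.8% of all regions were. Centred enrichment stood apart between the lines for 4 members at the heavy chain locus, 1 of them higher in EBF1-dTAG_C and the other 3 lower, and for 0 at kappa, where 8.83% of all 15269 regions stood apart in either direction.

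Falling neighbours lay near some members, in smaller shares than near the other distal regions, and the difference was not tested. Within 50 kb, 584 members (26.8%) had a distal non-member region called falling in the authors' deposited table of EBF1-dTAG_C, and 959 (43.9%) had one in that of EBF1-dTAG_N. For the other distal regions the shares were 32.9% and 50.5%. The median distance to the nearest falling neighbour, where there was one, was 15.5 kb and 14 kb for members and 11.9 kb and 10.2 kb for the other distal regions. Examples are the member inside Bach2, with a falling neighbour 0.476 kb away in each of the authors' deposited tables, and the member inside Tcf4, at 1.11 kb. The former had an enrichment of 25.4 and 22.7, then 26.3 and 24.5 in EBF1-dTAG_C, and a pileup of 119 and 110, then 96 and 69 reads. After scaling by depth, its pileup differed by only -0.02 log2 units between dTAG-13 and DMSO in that line. Its own log2 fold change was -0.30 (adjusted p = 0.527) in the authors' deposited table of EBF1-dTAG_C.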

How the data were processed

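ATAC-seq libraries of 2 lines and 2 treatments (2 libraries each, called biological replicates; that they were separate cultures is not given, so spread may be technical) were taken as deposited. Per the submitters' processing notes, MACS2 2.2.7.1, edgeR 3.32.0, Bowtie2 2.3.5.1, deepTools 3.3.2, SAMtools 1.10 and GRCm38 (mm10) were named; no source here gives read filters, Tn5 shift or scaling. In the peak lists as deposited, 1 per library, each peak has the authors' score, fold enrichment at the summit (a ratio) and −log10 p- and q-values. The deposited comparison tables hold the authors' log2 fold changes, log2 CPM, F score, p-value and adjusted p-value per region, with no values per library, so these calls were not refitted. Depth in reads is unknown, and the lowest solved background gives it in relative terms.

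Repeated rows (8 and 12) were counted once. Overlaps needed 1 bp, and the peak with the highest fold enrichment was taken per list. Pileup (P) and background (B) were solved from (P + 1)/(B + 1) and the Poisson tail (relative tolerance 1e-04). Line differences used exact permutation over the libraries (two-sided) with Benjamini-Hochberg adjustment. Scripts were tested on simulated data. Python 3.11.15, numpy 2.4.6, pandas 2.3.3, scipy 1.17.1 and matplotlib 3.10.9 were used. Named members: the 8 most abundant, the 4 steadiest, 3 on each side of each edge of the window, the 3 smallest p per table and direction, the 4 largest line differences each way, and the most abundant member of each listed gene. The members and gene lists were chosen with earlier results of these data known. Solving pileups and searching starts for motifs were chosen after seeing the data. The number in the peak names of the lists of EBF1-dTAG_C DMSO replicate 1 (4) and dTAG-13 replicate 2 (3) differs from their labels. The labels were followed. The example starts leave out chromosome 18.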

Additional observations from a re-analysis of the deposited data

How the results depend on the processing

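The number of stable regions stayed within 1.5 times of 2183 with centred enrichment (2224), a minimum −log10 q of 5 or 20 (2569, 1561), 50% overlap (2183), 5 or 20 kb from genes (2862, 1472), the summit nearest to the centre (2174), the regions of the EBF1-dTAG_N table (2188) and each library left out (1925 to 2114). With alternatives chosen after seeing the data it was 1128 by the authors' log2 fold changes (587 shared), 1538 by the same centred (919 shared), 1137 by depth-scaled pileup (734 shared) and 1177 by centred pileup (811 shared). At an adjusted p under 0.01 the calls were 25 falling and 5 rising in EBF1-dTAG_C, where 4.21% and 0.0258% of all regions were called. On centred folds, 12 rose in EBF1-dTAG_C (0.162% of all regions), and 202 fell and 469 rose in EBF1-dTAG_N (20.8% and 7.98% of all regions). With members chosen by centred enrichment, 19 rose in EBF1-dTAG_C, where 0.308% of all regions rose. Lines stood apart for 171 members (higher in EBF1-dTAG_C) and 181 (higher in EBF1-dTAG_N), against 4.87% and 3.96% of the 15269 regions. With DMSO libraries only the counts were 453 and 518, against 24.5% and 20%. With 1 library left out they were 196 to 264 and 202 to 298, against 6.16% to 8.81% and 5.17% to 6.42%. The 264 is without EBF1-dTAG_C DMSO replicate 1 and the 298 without EBF1-dTAG_C dTAG-13 replicate 1. A falling neighbour lay within 20 kb of 333 (EBF1-dTAG_C) and 604 (EBF1-dTAG_N) members. The cause of these shifts was not tested, though fewer libraries or a shorter distance change such counts by construction. The remaining settings kept summit displacement, width ratio and counts within their limits. Motif windows around summits were not run, since no genome was used here.

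With the replicate block (libraries of the same treatment and number paired across the lines, all 4 differences of 1 sign) the counts were 386 and 351. The numbers do not pair these libraries: over the members, deviations of same-numbered libraries correlated at -0.00532 (DMSO) and 0.0190 (dTAG-13) between the lines. Within EBF1-dTAG_C the correlation between treatments was -0.27, and no test paired treatments.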
